A study of Mus musculus with 2 samples.

Results

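R-loop peaks were examined at 7 genes of the helix-loop-helix (HLH) family, the 4 Id genes *Id1*, *Id2*, *Id3* and *Id4* and the 3 E-protein genes *Tcf3*, *Tcf4* and *Tcf12*. They were taken by symbol from GENCODE M1, the gene annotation of the mm9 build, and are 7 of its 22367 protein-coding genes. A peak was assigned to a gene that it overlapped by at least 1 bp or to which it lay within 10 kb. This gave 30 of the 22132 peaks in the list, 24 that overlapped a gene and 6 in the flanks, and each belonged to a single member. Primary neural stem/progenitor cells (NSPCs) came from frontal brains of C57BL/6 mice at postnatal day 7. The cells had been exposed to 0.5 μM aphidicolin, a DNA polymerase inhibitor that slows replication, for 48 h, a treatment that the sample labels do not name. Untreated cells were not analysed here. DNA digested with EcoRI, HindIII, BsrGI, SspI and XbaI was precipitated with S9.6, an antibody to RNA:DNA hybrids (DRIP-seq), and 1 list of peaks was used. The list gives positions only, so that the depth behind each peak is unknown, no replicate error can be given and no condition can be compared. The matching input library was not analysed here.

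E proteins are basic HLH transcription factors that bind E-box DNA as dimers, often with a tissue-restricted partner such as Olig2 in neural progenitors. Id proteins have the HLH domain but lack the basic region that contacts DNA, so a dimer of an Id protein and an E protein does not bind the E-box. In the developing brain, Id genes are known as targets of BMP signalling through Smad proteins and are associated with the maintenance of undifferentiated progenitors. *Tcf3* is also known as E2A, *Tcf4* as E2-2 and *Tcf12* as HEB, and none of them is a Wnt effector of the *Tcf7* group, for which similar names have been used. An R-loop is an RNA:DNA hybrid together with the displaced DNA strand, and it forms mainly where a gene is transcribed.

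R-loop peaks overlapped 3 of the 4 Id genes and 2 of the 3 E-protein genes, while *Id2* and *Tcf3* contained 0 peaks. The families differed in how much of the gene was covered. Peaks held 56.6% of the 8.32 kb of Id gene sequence and 7.07% of the 636 kb of E-protein gene sequence. In peaks per length, this was 36.1 per 100 kb in the Id genes, from 3 peaks, and 3.30 per 100 kb in the E-protein genes, from 21 peaks. Across the annotation, 39.6% of protein-coding genes overlapped a peak, and 51.3% had one in the gene or within 10 kb, as all 7 members did. Because 7 genes of related function are not replicates, these differences are descriptions without a test.

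Gene length bears on this comparison, since the Id genes span 1.16 to 2.61 kb and the E-protein genes 24.1 to 344 kb. Of 5841 protein-coding genes under 5 kb, 15.9% overlapped a peak, and those that did had a median of 74.2% of their bases in peaks. Of 954 genes of 200 kb and over, 67.1% overlapped a peak, and the median was 0.538% in those that did. High coverage in a short gene with a peak and low coverage in a long gene are thus the usual pattern of the list. *Id1* and *Id3* lay above the median of the short genes with a peak and *Id4* below it, and *Tcf12*, with 1.30%, lay above the median of the long ones. *Tcf4*, with 12.1% of its bases in peaks, stood above 97.9% of the genes of its length class. On the same measure, *Id1* stood above 93.7%, *Id3* above 93.9%, *Id4* above 90.6% and *Tcf12* above 77.7% of their classes. These ranks include genes without a peak, 84.1% of those under 5 kb. Pooled over all genes of a class, 14.7% of bases lay in peaks under 5 kb and 1.10% at 200 kb and over.

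**Figure D1:**
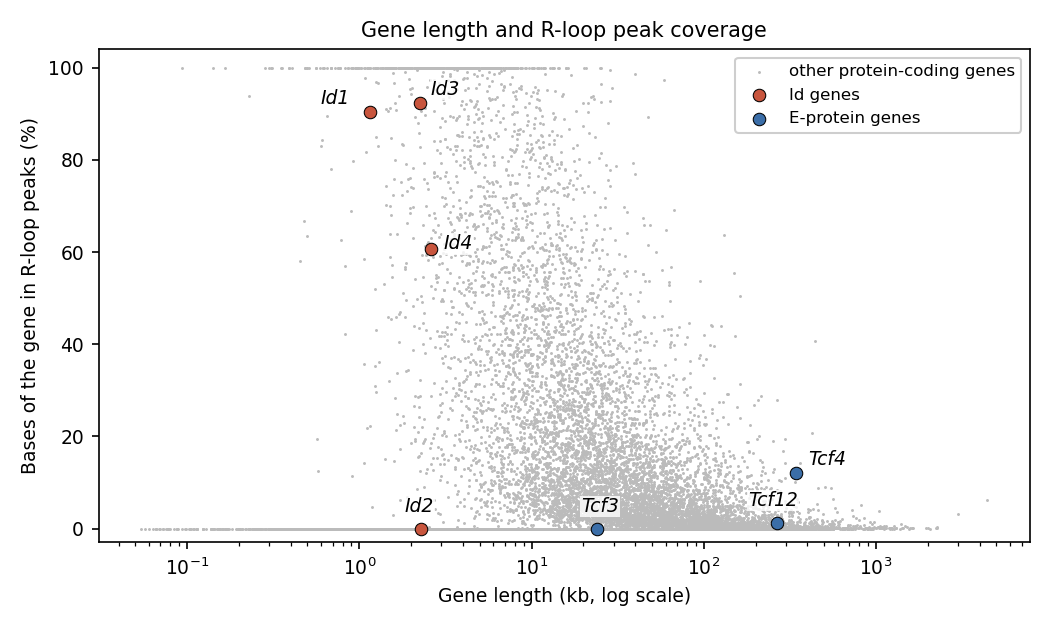
Gene length in kb (log scale) against the percentage of gene bases in R-loop peaks, with Id genes in orange, E-protein genes in blue and the other protein-coding genes in grey. *Id1*, *Id3* and *Id4* lie at 90.3, 92.3 and 60.6%, *Tcf4* at 12.1% far to the right, and *Id2* and *Tcf3* at 0.

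Among the Id genes, *Id1* (ENSMUSG00000042745), known for its expression in neural stem cells, occupies positions 152561987 to 152563146 of chromosome 2 on the plus strand. A single peak between 152561889 and 152563034, 1.15 kb wide, covered 90.3% of the gene. Relative to the transcription start site (TSS), the peak reached from -98 to 1047 bp, included the whole intron of Id1-001 and left 0.112 kb at the gene end uncovered. It was thus nearly as long as the gene itself, and no other peak lay within 18.9 kb upstream or 19.1 kb downstream.

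*Id3* (ENSMUSG00000007872) occupies positions 135699412 to 135701670 of chromosome 4, plus strand. It overlapped a peak 3.16 kb wide, between 135699587 and 135702748. This peak covered 92.3% of the gene, including both introns of Id3-001 and the transcription end site (TES). It differed from the *Id1* peak in its position, as it began 175 bp inside the gene and ran past its end. The TSS of the gene therefore lay just outside the peak, while the starts of the shorter transcripts Id3-002 and Id3-003 lay in it. Another peak of 1.16 kb lay 4.36 kb downstream of the gene.

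*Id4* (ENSMUSG00000021379) occupies positions 48356796 to 48359405 of chromosome 13, plus strand. A peak 2.59 kb wide, between 48355789 and 48358376, reached from -1007 to 1580 bp relative to its TSS and covered 60.6% of the gene. The same peak contained the start of the long noncoding RNA gene A330033J07Rik, which is transcribed from the other strand and starts 1196 bp downstream of the *Id4* TSS, so that the transcripts overlap there. DRIP-seq peaks carry no strand, and the share of the peak that belongs to each transcript cannot be told apart. This peak stood alone, since the next peaks lay 136 kb upstream and 179 kb downstream.

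*Id2* (ENSMUSG00000020644), at positions 25778666 to 25780957 of chromosome 12, minus strand, was the Id gene without a peak. Its nearest peak, between 25783043 and 25783548, was 0.506 kb wide, the smallest of the 5 assigned to Id genes, and lay 2.09 kb upstream of the TSS. On the downstream side, the next peak was 27.1 kb away. The protein-coding neighbour on that side, Kidins220, contained 5 peaks, with its TSS in a peak. A lack of peaks is common in genes of this size, as 84.1% of protein-coding genes under 5 kb had none.

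**Figure D2:**
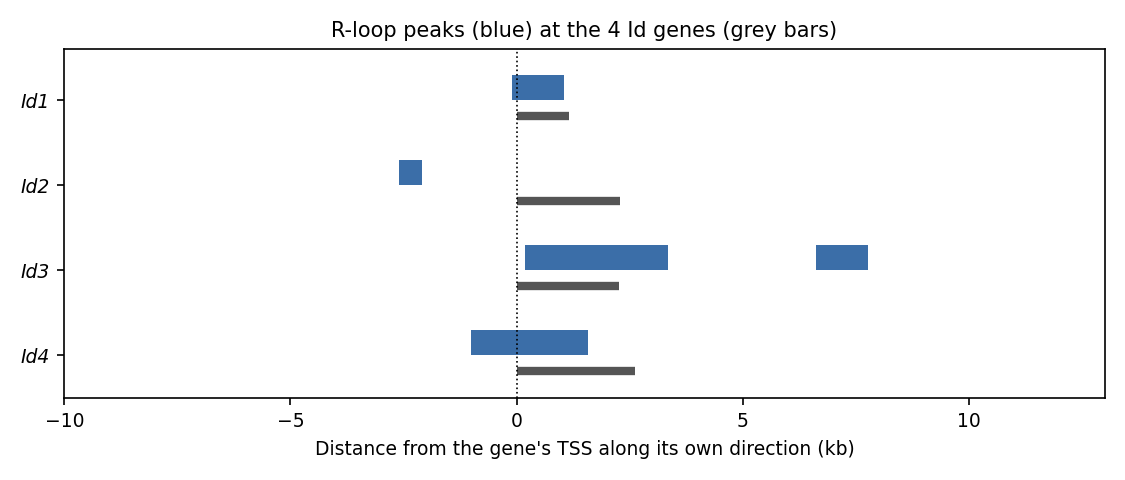
R-loop peaks (blue) and gene limits (grey) of the 4 Id genes on a common scale, in kb from each TSS along the direction of transcription, with all peaks within 10 kb of each gene. Peaks sit on *Id1*, *Id3* and *Id4*, and the *Id2* peak lies 2.09 kb upstream of its TSS.

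For the peaks over *Id1*, *Id3* and *Id4* and the peak upstream of *Id2*, the 60 bases in which G most outnumbers C on the coding strand are shown, because G-rich nontemplate DNA is known to favour R-loops. Stretches in annotated untranslated regions were left out, and the peak downstream of *Id3* is not shown. Runs of at least 3 G are in capitals, all positions refer to mm9, and each sequence reads 5′ to 3′ on the strand of its gene.
*Id1*, chr2:152562126-152562185, plus strand, exon: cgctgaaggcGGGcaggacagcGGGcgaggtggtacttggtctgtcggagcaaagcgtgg
*Id3*, chr4:135701379-135701438, plus strand, intron: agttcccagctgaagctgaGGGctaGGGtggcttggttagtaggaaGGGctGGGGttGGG
*Id4*, chr13:48356472-48356531, plus strand, upstream of the TSS: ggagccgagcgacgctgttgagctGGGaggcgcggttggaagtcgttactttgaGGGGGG
*Id2*, chr12:25783379-25783438, minus strand, upstream of the TSS: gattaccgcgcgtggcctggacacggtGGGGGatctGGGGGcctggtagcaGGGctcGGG
The *Id1* stretch, 28 G and 12 C, has no run longer than 3 G, and the *Id2* stretch, 29 G and 14 C, has 2 runs of 5 G. The *Id3* stretch has 28 G and 8 C, and the *Id4* stretch 29 G and 10 C. The *Id3* stretch lies past the end of Id3-001, at 135701307, and is intronic only in the processed transcript Id3-003. The *Id4* stretch lies upstream of *Id4* but within A330033J07Rik, for which the printed strand is the template. The *Id2* stretch lies in no annotated gene, so that neither strand can be called nontemplate there.

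Over whole peaks and on the strand of the Id gene, G exceeded C in the *Id3* peak alone among these 4. GC skew, which is (G - C)/(G + C) on the strand of the gene, was 0.0355 in the *Id3* peak over the gene, -0.0379 in the *Id1* peak, -0.0550 in the *Id4* peak and -0.125 in the peak upstream of *Id2*. The 60-base stretches are thus local and do not stand for the peaks as a whole. For the *Id4* peak the sign of the skew is reversed on the strand of A330033J07Rik, which starts in it. The share of G or C was 57.5% in the *Id1* peak, 53.4% in the *Id3* peak, 62.5% in the *Id4* peak and 58.3% in the *Id2* peak. The parts of *Id1* and *Id4* outside the peaks, 0.112 and 1.03 kb at their ends, held 26.8 and 35.2% G or C. In *Id3* the contrast was smaller, with 48.6% in the 0.175 kb outside the peak and 56.1% in the part inside it.

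Of the E-protein genes, *Tcf3* (ENSMUSG00000020167), known for its part in lymphocyte development, is the shortest with 24.1 kb, at positions 79872259 to 79896392 of chromosome 10, minus strand. It contained 0 peaks, and 0 of its 11 annotated transcript starts lay in one. The nearest peak, 2.13 kb wide and between 79900438 and 79902571, ended 4.05 kb upstream of the TSS, and the next on the other side lay 15.1 kb away, outside the limit of 10 kb. The gene downstream, Uqcr11, which encodes a respiratory chain subunit, also contained 0 peaks. Of 4877 protein-coding genes of 20 to 50 kb, 49.1% overlapped a peak and 50.9% did not. The 150 bases before the *Tcf3* TSS are printed with runs of at least 3 G in capitals, as the most G-rich of the 6 such stretches read here.
*Tcf3*, chr10:79896393-79896542, minus strand: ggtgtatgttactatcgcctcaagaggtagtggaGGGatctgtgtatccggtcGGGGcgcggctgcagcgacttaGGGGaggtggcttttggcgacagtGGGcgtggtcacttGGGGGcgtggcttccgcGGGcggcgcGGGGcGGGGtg
This stretch has 70 G and 30 C. Of the genes with the TSS in a peak, *Id1* has 37 G and 47 C in the same 150 bases, *Id4* 41 G and 41 C, and *Tcf12* 60 G and 58 C. Of those with the TSS outside, *Id2* has 46 G and 44 C, and *Id3* 46 G and 24 C.

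*Tcf12* (ENSMUSG00000032228) is 268 kb long, at positions 71692059 to 71959626 of chromosome 9, minus strand. Its 5 peaks covered 1.30% of the gene. The widest, 2.68 kb and between 71958681 and 71961360, covered the TSS shared by 3 of the 4 annotated transcripts and reached from -1.73 to 0.945 kb relative to it. The start of the other transcript, 216 kb into the gene, lay 17.4 kb from the nearest peak. The other 4 peaks were 0.378 to 0.915 kb wide and lay wholly in introns 3, 5, 12 and 19 of the longest transcript. The largest gap between neighbouring peaks was 132 kb, and beyond the gene end 2 more peaks lay within 10 kb. Of the 954 genes of 200 kb and over, 18.1% had at least 5 peaks, so that the number in *Tcf12* was not unusual.

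Sequence differed between the first and the last peak in *Tcf12*, as shown by their most G-rich 60 bases (mm9, minus strand, runs of at least 3 G in capitals).
*Tcf12*, TSS peak, chr9:71959102-71959161, intron: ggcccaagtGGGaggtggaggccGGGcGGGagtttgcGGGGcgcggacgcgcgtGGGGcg
*Tcf12*, last peak, chr9:71698520-71698579, intron: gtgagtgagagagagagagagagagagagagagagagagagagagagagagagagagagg
The stretch near the TSS has 35 G and 13 C in a peak of 58.4% G or C. The other is mostly a GA repeat, with 31 G and 0 C, in a peak of 0.648 kb with 41.0% G or C. The 4 intronic peaks had a GC skew of 0.161 to 0.263, and the TSS peak one of -0.0332. In the gene outside its peaks the skew was 0.0429, and 37.6% of bases were G or C.

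*Tcf4*, the gene mutated in Pitt-Hopkins syndrome in humans, was the member with the most peaks. This gene (ENSMUSG00000053477) is 344 kb long, at positions 69503800 to 69847621 of chromosome 18, plus strand. It contained 16 peaks of 0.548 to 6.10 kb, with a median of 2.07 kb, which covered 41.5 kb. Only 17 of the 954 protein-coding genes of 200 kb and over, *Tcf4* included, had at least 16, or 1.78%. *Tcf4* supplied 92.3% of all E-protein gene bases in peaks. Without it, an alternative chosen after seeing the data, *Tcf3* and *Tcf12* together had 5 peaks and 1.19% of bases in peaks.

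The peaks of *Tcf4* were concentrated at its 5′ end. The first 100 kb contained 10 of the 16 peaks and had 31.2% of bases in peaks, compared to 4.22% in the remaining 244 kb. The first 100 kb of other genes of 200 kb and over were rarely covered as much, since 99.6% of these genes had a lower share. The remaining part of *Tcf4* was also covered more than that of most such genes, as 91.7% had a lower share there. Base composition was nearly equal along the gene, with 42.2% G or C in the first 100 kb and 42.3% in the rest. A gap of 110 kb followed peak 10, and the other 6 peaks lay between 210 and 336 kb from the TSS. In *Tcf12*, by comparison, 2 peaks lay in the first 100 kb, which had 1.53% of bases in peaks, and the remaining 168 kb had 1.16%.

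**Figure D3:**
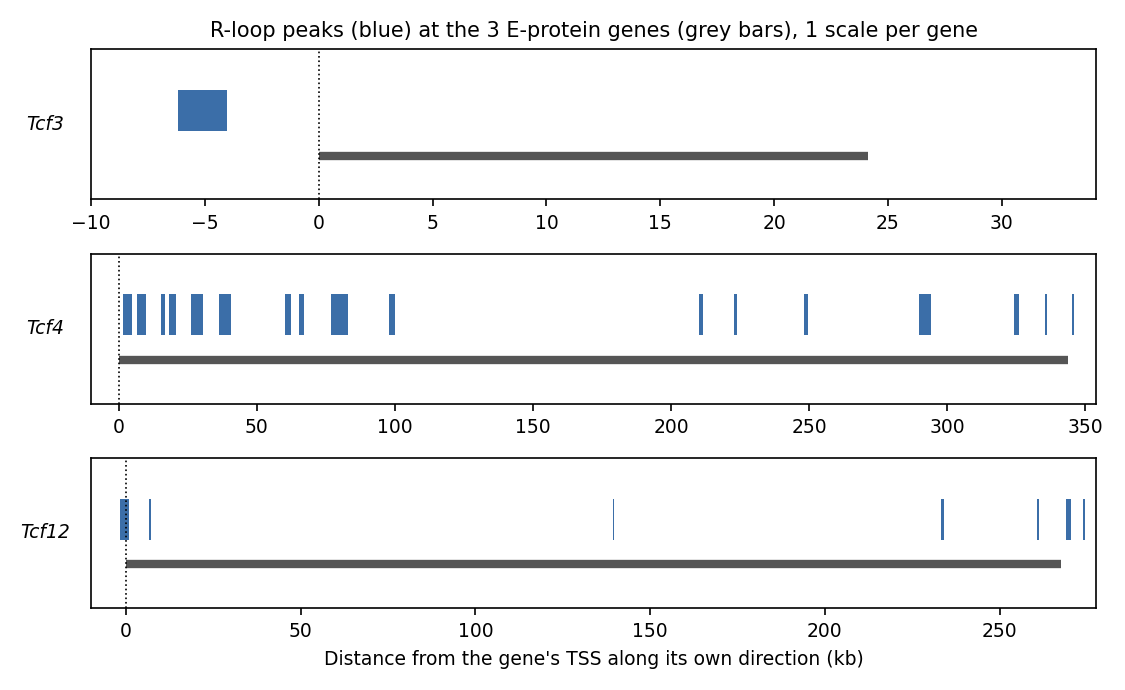
R-loop peaks (blue) and gene limits (grey) of *Tcf3*, *Tcf4* and *Tcf12*, in kb from each TSS along the direction of transcription and with a separate scale for each gene. *Tcf4* has 10 peaks in its first 100 kb and then a gap of 110 kb, *Tcf12* has a peak over the TSS and 4 narrow peaks, and the only peak near *Tcf3* lies upstream.

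Most of the *Tcf4* peaks were intronic, as is most of the gene length. Their number therefore does not show a preference for introns. Of the 16, 12 overlapped no exon of any annotated transcript, and 9 lay wholly in intron 3 of Tcf4-001, the longest protein-coding transcript. This intron is 113 kb long, or 32.8% of the gene, and had 24.7% of its bases in peaks. Intron 5, 54.5 kb long or 15.9% of the gene, had none. The widest peak, 6.10 kb and between 69580706 and 69586803, was among the 9 in intron 3. GC skew ranged from -0.177 in peak 16 to 0.214 in peak 2 and was negative in 3 of the 16 peaks (4, 10 and 16). Over all bases of *Tcf4* in peaks the skew was 0.0471, compared to 0.0179 outside them. The share of G or C was 45.2% in the peaks and 41.8% in the gene outside them.

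*Tcf4* is transcribed from many promoters, and its annotated starts were set against the peaks. Of 14 distinct transcript starts, 6 lay in a peak. The outermost start, which sets the gene limit used here, was separated from the first peak by 1391 bp. That peak, 3.31 kb and between 69505192 and 69508504, contained the starts of 4 transcripts, among them Tcf4-002 and Tcf4-004. Another group of protein-coding transcripts, Tcf4-007 and Tcf4-008, starts 249 kb into the gene, and both starts lay in a peak of 1.31 kb between 69752051 and 69753364. The starts of Tcf4-009 and Tcf4-010, 177 and 178 kb into the gene, fell in the long gap, 32.9 and 32.6 kb from the nearest peak.

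**Figure D4:**
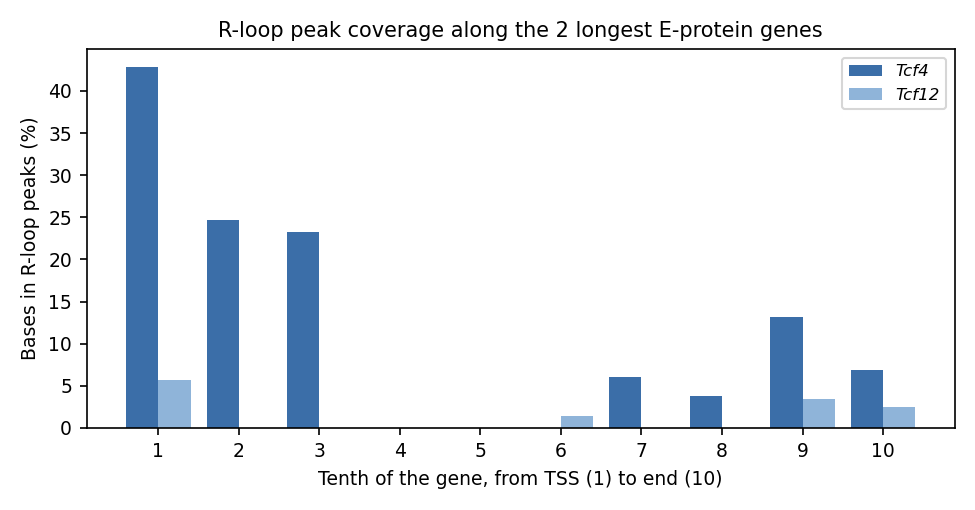
Percentage of bases in R-loop peaks in 10 equal parts of *Tcf4* (dark) and *Tcf12* (light), numbered from the TSS to the gene end. Coverage in *Tcf4* was 42.8% in part 1, 0 in parts 4 to 6 and 13.1% in part 9, whereas that of *Tcf12* was 5.71% at most.

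To compare short and long genes over the same length, the 10 kb on each side of every TSS were used. Peaks covered 5.73% of this window for *Id1*, 2.53% for *Id2*, 21.6% for *Id3* and 12.9% for *Id4*. They covered 10.7% for *Tcf3*, 31.5% for *Tcf4* and 16.3% for *Tcf12*. The families overlapped, with a mean of 10.7% for the Id genes and 19.5% for the E-protein genes. The excess of the Id genes seen over gene length was not present in this window. However, the Id genes span 1.16 to 2.61 kb, so most of their window is flanking sequence, while *Tcf4* and *Tcf12* extend beyond its downstream limit. A short gene covered in full can thus fill only a small part of the window, which does not set the families on equal terms. The mean over all protein-coding genes was 6.93%, and 63.7% of them had no peak in the window. The order of the families depended on the window. Within 2 kb of the TSS, the share of bases in peaks was 34.7% for the Id genes and 27.4% for the E-protein genes, and within 50 kb it was 9.37 and 9.97%.

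**Figure D5:**
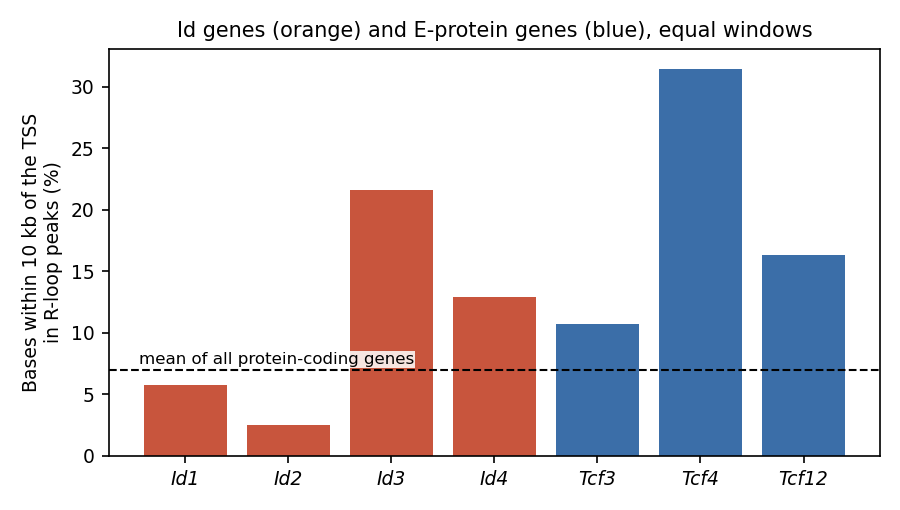
Percentage of bases within 10 kb of the TSS that lay in R-loop peaks, for each Id gene (orange) and E-protein gene (blue), with the mean of all protein-coding genes, 6.93%, as a dashed line. *Id1* and *Id2* lie below the line and the other 5 genes above it.

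The gene starts were examined more closely. The TSS lay in a peak in *Id1*, *Id4* and *Tcf12*, or 3 of 7 genes, compared to 14.9% of all protein-coding genes, 10.9% of those under 5 kb and 12.5% of those of 200 kb and over. With *Id3* added, 4 of 7 had a peak within 1 kb of the TSS, compared to 19.4%. The TES lay in a peak in *Id3* alone, compared to 10.9% of protein-coding genes. Within 1 kb of the TSS, *Tcf12* and *Id4* were the richest in G and C, with 64.5 and 63.2%, above 97.3 and 95.7% of protein-coding genes. *Tcf4*, measured at its outermost start, 1391 bp from the nearest peak, was the poorest with 45.3%. *Id2*, without a peak, had 52.6%, close to the 53.1% of *Id1* and the 53.4% of *Id3*. In all 7 genes, GC skew over the first 1 kb, from -0.0276 to 0.0335, was below the median of 0.0390 over protein-coding genes, and that median was 0.0649 in genes with the TSS in a peak.

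Short motifs were counted on both strands from 250 bp before to 50 bp after each TSS. The E-box CANNTG was found at *Id2*, *Tcf3* and *Tcf12*, and in 69.6% of protein-coding promoters. Its form CACCTG, preferred by E proteins and counted within CANNTG as well, was found at 0 of the 7 genes and in 19.9% of promoters. GGCGCC, a motif bound by Smad proteins, was found at *Id2* and *Id3* and in 14.3% of promoters. TATAAA was found at *Id1* and *Tcf4* and in 13.4% of promoters. These matches describe letters in a fixed window and not bound sites.

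Restriction digestion limits how finely a peak can be placed. Of the 60 edges of the peaks at these genes, 22 (36.7%) lay within 100 bp of a site of the 5 enzymes used, compared to 28.3% of all edges in the list. The *Id4* peak had both edges within 57 bp of a site and covered 97.9% of the 2.62 kb fragment around its TSS. At the second group of *Tcf4* promoters, both edges lay 2 bp from a site. Sites are frequent in the 2 genes with the most peaks, with 1 per 0.524 kb in *Tcf4* and 1 per 0.451 kb in *Tcf12*. The share of all positions that lie near a site is not given here, and the part of digestion in these peak limits was not tested.

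Genes that act with these members were counted from lists. In the BMP-Smad pathway, which lies upstream of Id genes, 15 of 25 genes overlapped a peak. Their median length was 64.8 kb, and 57.8% of protein-coding genes of 50 to 200 kb overlapped a peak. By role, these were 2 of 5 BMP ligands (Bmp6 and Bmp7), 5 of 6 BMP and activin receptors, and 3 of 4 receptor-regulated and common Smads (Smad1, Smad4 and Smad5). Of the secreted antagonists, Chrd had a peak and 3 of 4 had none. These roles also differ in gene length. The receptors span 31.1 to 332 kb, the receptor-regulated and common Smads 39.4 to 64.8 kb, the ligands 7.15 to 155 kb and the antagonists 1.92 to 12.5 kb. Peaks overlapped 38.9% of protein-coding genes of 5 to 20 kb and 67.1% of those of 200 kb and over. Smad7, an inhibitory Smad, had the highest share of its bases in peaks, 99.6% of 28.4 kb in a single peak. It was followed by the corepressor gene Ski, with 36.8% in 7 peaks, and Smad1, with 29.0% in 7 peaks.

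Tissue-restricted basic HLH partners of E proteins gave a different count, with 3 of 27 genes overlapping a peak. Among them were Olig1 and Olig2, factors of the oligodendrocyte lineage, with 100% and 84.5% of their bases in a peak. The TSS lay in a peak in all 3. The other 13 of 16 neural partners and all 11 partners of muscle, blood and mesoderm contained 0 peaks. The median length of these 27 genes was 3.19 kb. Of the 21 under 5 kb, 3 had a peak, to be read against the 15.9% of all protein-coding genes of that size.

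A peak list does not measure expression, and marker genes of cell types were only counted. Peaks overlapped 6 of 10 NSPC markers, with a median length of 9.14 kb, and 0 of 6 neuron markers, with a median length of 73.2 kb. Among protein-coding genes, 39.6% overlapped a peak, or 38.9% of those of 5 to 20 kb and 57.8% of those of 50 to 200 kb. They overlapped 2 of 5 oligodendrocyte, 2 of 5 microglia, 1 of 5 endothelial and 0 of 5 fibroblast markers. The median lengths of these lists were 16.8 to 45.6 kb, sizes at which 38.9% (5 to 20 kb) or 49.1% (20 to 50 kb) of protein-coding genes overlapped a peak.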

How the data were processed

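DRIP-seq peaks of primary NSPCs were taken from the 1 deposited list, which gives the start and end of each peak (base pairs) and no measure of height. The aphidicolin treatment is known from the methods alone. The authors trimmed reads (Trim Galore 0.6.6 in the submitters' processing notes), aligned them to mm9, removed duplicates and applied a Hidden Markov Model. The paper states that its peaks came from independent biological replicates. The aligner and the way these replicates were combined are not given in the sources used here. Depth per sample is unknown, and only positions enter the results.

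Peaks were set against the mm9 sequence and GENCODE M1 (37273 genes, 22367 protein-coding), with Python 3.11.15, numpy 2.4.6, pysam 0.24.0 and matplotlib 3.10.9. The gene start is the outermost annotated start. Classes were under 5, 5 to 20, 20 to 50, 50 to 200 and at least 200 kb. The counting steps were checked on simulated peaks at 200 genes, and all 200 were placed correctly. Alternative names of members came from a RefSeq table of GRCm38.p6.

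No test was made, since the 1 list does not keep the replicates apart and genes are not replicates. The members and lists were chosen with earlier results of these data known. Besides the members, the text names genes that neighbour them or overlap their peaks and, from each list, the 3 genes with the highest share of bases in peaks or those behind a small count. A330033J07Rik, a noncoding gene, was named after its values were seen. The values of some list genes are not reported here. Other settings tried were a minimum peak width of 1 kb, merging of peaks closer than 1 kb, the larger part or midpoint of a peak inside, the longest protein-coding transcript, and flanks or windows of 2 and 50 kb.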

Additional observations from a re-analysis of the deposited data

How the results depend on the processing

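The number of genes with a peak stayed at 3 Id genes and 2 E-protein genes under each of the 5 alternatives tried on it, leaving out *Tcf4* aside. Merging of peaks cannot lower this number, and it left every family total unchanged, so that setting says little about stability. Of 55 family totals recomputed, 40 stayed within 1.5 times for counts or within the 95% Wilson interval of a share, which covers the number of bases only. With the longest protein-coding transcript, the share of Id gene bases in peaks was 54.7%. Peaks near Id genes numbered 3 with a flank of 2 kb and 19 with 50 kb. With peaks of at least 1 kb, the share within 10 kb of the TSS was 10.1% for Id and 18.5% for E-protein genes, the share of E-protein gene bases was 6.46%, and *Tcf12* kept 1 of its 5 peaks. Windows of 2 and 50 kb gave 34.7 and 9.37% for Id genes and 27.4 and 9.97% for E-protein genes, so that the order of the families changed with the window. Leaving out *Tcf4*, added after seeing the data, left 1 E-protein gene with a peak, 5 peaks in the genes, 8 within 10 kb, 1.19% of gene bases and 13.5% of bases within 10 kb of the TSS. No paired analysis was possible because the 1 list carries no replicate numbers. The absence of a peak in *Id2* and *Tcf3* says nothing about signal below the authors' threshold.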

Other observations

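Genes whose products work with E proteins or control Id or E proteins overlapped peaks in 13 of 18 cases, with 32 peaks in all. Ldb1, an adaptor that links LIM-domain proteins to E-protein complexes, had 54.7% of its bases in 3 peaks. Of the LMO and LDB1 adaptor genes, 3 of 4 overlapped a peak, as did all 3 acetyltransferase genes (Ep300, Crebbp and Kat2b), which encode coactivators. Of 4 genes listed for the turnover of Id or E proteins, 3 did. Among them was Usp1, a deubiquitinase that stabilises Id proteins, with a peak over the TSS and 5.17% of its bases in peaks. The ETO corepressor genes, known to bind E proteins, gave 1 of 3. Not every role in this list is given. The median length of these 18 genes was 20.3 kb, a size at which 49.1% of protein-coding genes overlapped a peak. The 3 acetyltransferase genes are longer, 66.7 to 129 kb, and 57.8% of protein-coding genes of 50 to 200 kb overlapped a peak.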
